A study of Mus musculus with 24 samples.

Results

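Vertebral EMB- cells were sorted from mice on postnatal day 10, and cells that carried GFP from a Zic1-linked Cre (GFP+ EMB-, 4 libraries) were compared with cells that did not (GFP- EMB-, 4 libraries). These are 8 of the 24 RNA-seq libraries of the study, which also profiled vertebral EMB+ cells with and without GFP and long bone cells, with 4 libraries each. All genes of the deposited protein-coding table with a level of at least 1 FPKM (a fragment count divided by transcript length and by the number of fragments mapped in that library) in at least 4 of the 8 libraries were taken, which gave 10489 of 21864 genes (48.0%). All 8 libraries came from male spine with the genotype label WT, and all cells were sorted as CD45-, Ter119-, CD31-, Thy1-, 6C3-, CD200+, CD105- and EMB-, so the groups differ by GFP. The titles call the 4 libraries of each group biological replicates. The labels name neither the reporter allele nor the number of animals behind a library. The p-values here therefore speak of spread among libraries, and how far that is spread among animals is not given.

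GFP stays on in a cell and its descendants once Cre has acted, so it marks a history of Zic1 activity rather than its present level. Zic1 encodes a zinc finger transcription factor active in the somites, whose sclerotome forms the vertebrae. CD200+ CD105- cells outside the blood, endothelial and Thy1/6C3 compartments are used as a skeletal stem cell gate in mice, and embigin, the product of Emb, is a membrane glycoprotein that divides it further. Around birth a vertebra holds growth plate cartilage that ripens through a hypertrophic stage into bone, fibrous tissue of periosteum, ligament and annulus, remnants of the notochord in the disc, and red marrow.

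The 8 libraries summed to 380438 to 400651 FPKM in GFP+ and 391419 to 401574 FPKM in GFP- cells. They held 10130 to 10218 genes at 1 FPKM or more in GFP+ cells, against 10372 to 10497 in GFP- cells. The read depth behind these values is unknown. No library stood apart: log2 levels correlated at 0.979 to 0.987 within groups and at 0.942 to 0.962 between them. Zic1 (ENSMUSG00000032368, GRCm38 chromosome 9, 91358058 to 91365810) was at 0.349, 0.841, 1.39 and 0.729 FPKM in the GFP+ EMB- libraries, against 0, 0.0647, 0.0203 and 0 FPKM in the GFP- EMB- libraries. Every GFP+ library was above every GFP- library, with low levels throughout. Because it misses the minimum level, Zic1 was tested in a fit without that filter, where its log2 difference was 0.81 (adjusted p = 2.63e-05). Zic4, its neighbour in the genome, was at 1.499, 0.797, 1.47 and 1.12 FPKM in the GFP+ EMB- libraries, against 0, 0.296, 0 and 0 FPKM in the GFP- EMB- libraries, and differed by 1.05 (adjusted p = 9.31e-07) in the same fit. Emb averaged 0.398 ± 0.126 FPKM in GFP+ and 1.03 ± 0.206 FPKM in GFP- libraries (SD, n = 4 each). Its highest GFP+ EMB- level, 0.543 FPKM, was below its lowest GFP- EMB- level, 0.855 FPKM. Emb too misses the minimum level, and in the fit without that filter it was lower in GFP+ EMB- cells by 0.54 (adjusted p = 0.00295). Both EMB- groups lay far below the EMB+ cells, where Emb averaged 49.995 ± 4.41 FPKM in GFP+ and 49.5 ± 4.70 FPKM in GFP- libraries. Cd200 averaged 132 ± 9.13 FPKM in GFP+ EMB- and 97.8 ± 12.2 FPKM in GFP- EMB- libraries. Its lowest GFP+ EMB- level, 123 FPKM, was above its highest GFP- EMB- level, 114 FPKM. Its log2 difference of 0.44 did not pass in the main fit of all 24 libraries (adjusted p = 0.285). It passed in a fit of the 8 compared libraries alone (adjusted p = 0.00572, or 7.65e-04 with a block on replicate). It also passed without long bone EMB- replicate 4 (adjusted p = 0.00742), where Cd200 was at 563 FPKM. Thy1, Enpep (6C3), Ptprc (CD45) and Pecam1 (CD31) were all below the minimum, and Eng (CD105) averaged 1.87 ± 0.324 FPKM in GFP+ and 1.30 ± 0.516 FPKM in GFP- libraries (adjusted p = 0.453).

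Of the 10489 genes, 913 (8.7%) differed, 249 (2.37%) higher and 664 (6.33%) lower in GFP+ EMB- cells, by limma on log2(FPKM + 1), with Benjamini-Hochberg adjusted p below 0.05. Of these, 57 higher and 372 lower genes changed at least 2-fold, and the median log2 difference of all tested genes was -0.02. Red cell, haem and cell division genes led the drops, with 67 of the 664 lower genes in those lists, while bone, hypertrophic cartilage and fibrous matrix genes led the genes that rose. The minimum level itself let in 1.58% of the genes through GFP- libraries alone (151 of them called) and 0.248% through GFP+ libraries alone (15 called). At the edge of that minimum, the fourth highest level of the 8 was 1.00 FPKM for Gbp7, just inside, and 0.9997 FPKM for AW551984, just outside. Same-numbered libraries deviated together, and a fit that blocks on that number called 691 genes (6.59%) higher and 1224 (11.7%) lower, 18.3% in all. Quantile normalization shifted the balance to 531 higher and 656 lower genes, 44.7% of calls higher against 27.3% otherwise.

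**Figure D1:**
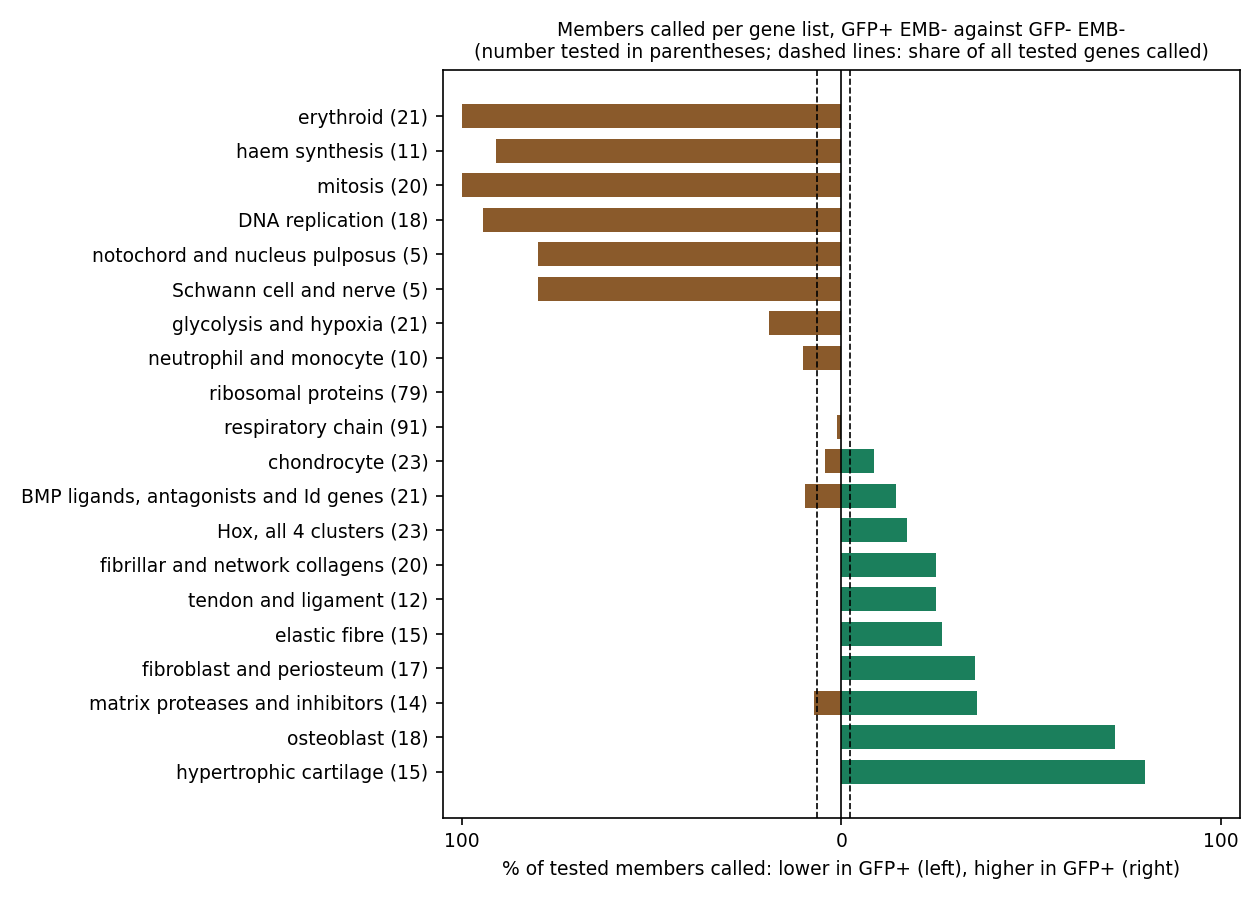
Share of tested members of each gene list (rows, number tested in parentheses) called lower (left) or higher (right) in GFP+ EMB- against GFP- EMB- cells, in percent, with dashed lines at the share of all tested genes called, 6.33% lower and 2.37% higher. All 21 erythroid and all 20 mitosis genes lie on the left, and 12 of 15 hypertrophic cartilage and 13 of 18 osteoblast genes on the right.

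Red cell genes fell most. Each of the 21 tested erythroid genes was lower in GFP+ EMB- cells, where the background is 6.33% of all genes, with a median log2 difference of -3.66 against -0.02 for all tested genes. Of these 21, 9 passed the minimum level through the GFP- libraries alone, so their direction was fixed in advance and their groups could not overlap. The 23 list members in the table held 0.0721 to 0.260% of summed FPKM in GFP+ libraries, against 1.91 to 3.16% in GFP- libraries. In bulk libraries, fewer cells of a type and less RNA per cell cannot be told apart. Klf1 (ENSMUSG00000054191, GRCm38 chromosome 8, 84901928 to 84905291), the master transcription factor of red cell maturation, and the alpha globin gene Hba-a1 (chromosome 11, 32283511 to 32284465) carry this group, and the 250 bases before their RefSeq transcript starts in GRCm38.p6 are shown because members that moved together include many with the motifs GATAA, read by GATA factors, and CACCC, read by Klf1. Capitals mark these motifs on either strand.
Klf1 (chr8:84901732-84901981, plus strand): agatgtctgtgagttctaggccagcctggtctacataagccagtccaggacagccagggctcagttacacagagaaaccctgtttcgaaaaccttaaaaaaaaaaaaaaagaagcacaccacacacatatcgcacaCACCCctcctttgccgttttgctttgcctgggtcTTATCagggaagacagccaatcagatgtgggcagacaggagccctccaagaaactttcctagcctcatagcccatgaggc
Hba-a1 (chr11:32283422-32283671, plus strand): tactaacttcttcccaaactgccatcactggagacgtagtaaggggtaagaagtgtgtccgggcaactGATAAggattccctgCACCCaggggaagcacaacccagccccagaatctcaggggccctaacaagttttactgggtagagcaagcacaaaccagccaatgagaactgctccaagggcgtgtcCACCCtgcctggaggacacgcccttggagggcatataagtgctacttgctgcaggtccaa
Each of these promoters holds a single GATAA, and for the other motif Klf1 holds 1 match and Hba-a1 holds 2. GATAA occurred in 13 of the 17 erythroid promoters in the RefSeq table (76.5%) and in 22.6% of all 32851 promoters, while the other motif occurred in 15 of 17 (88.2%) and in 52.0% of all. Of the 21 tested erythroid genes, 17 matched the table.

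Klf1 was at 1.28, 1.24, 1.71 and 0.906 FPKM in the GFP+ EMB- libraries, against 32.7, 47.2, 43.0 and 37.6 FPKM in the GFP- EMB- libraries. All 4 GFP- libraries lay far above the highest GFP+ library, and Klf1 fell by 4.17 on the log2 scale (SE 0.25, adjusted p = 1.04e-11). Hba-a1 was at 85.4, 296, 190.9 and 231 FPKM in the GFP+ EMB- libraries, against 2606, 3401, 4102 and 3026 FPKM in the GFP- EMB- libraries, again without overlap, and fell by 4.14 (SE 0.39, adjusted p = 2.12e-08). Within GFP+ cells its lowest level was in replicate 1. Near-identical copies such as Hba-a1 and Hba-a2, or Hbb-bs and Hbb-bt, share reads, so how a globin's total divides between them is uncertain. Slc4a1, the band 3 anion exchanger of the red cell membrane, was at 2.28, 9.06, 6.39 and 4.22 FPKM in the GFP+ EMB- libraries, against 119, 190.7, 204 and 138 FPKM in the GFP- EMB- libraries. It fell by 4.74 (SE 0.46, adjusted p = 8.57e-08). Car2, the carbonic anhydrase of red cells and osteoclasts, had the largest drop of the genes named by rule, at 6.37, 10.5, 10.7 and 8.22 FPKM in the GFP+ EMB- libraries, against 210.4, 312, 317 and 239 FPKM in the GFP- EMB- libraries (log2 difference -4.77, SE 0.28, adjusted p = 1.04e-11). Other red cell genes with large drops were Ctse (cathepsin E, -4.72), Tspan33 (-4.17), Rhag (-3.97), Cldn13 (-3.90), Hemgn (-3.84), Rhd (-3.66) and Ermap (-3.61), with the beta globins Hbb-bt (-4.01) and Hbb-bs (-3.81).

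Haem synthesis followed. Of its 11 tested genes, 10 fell (median -2.07), and the list held 0.0237 to 0.0263% of summed FPKM in GFP+ libraries, against 0.105 to 0.159% in GFP- libraries. Alas2, the red cell form of the first enzyme of the pathway, was at 2.87, 9.09, 6.73 and 8.58 FPKM in the GFP+ EMB- libraries, against 73.0, 127, 135 and 109 FPKM in the GFP- EMB- libraries, without overlap, and fell by 3.89 (SE 0.36, adjusted p = 1.99e-08). Alas1, the form used by other cells, was the member that did not pass, with a log2 difference of 0.11 (adjusted p = 0.833). Alad, the second enzyme, fell by 2.64 and Slc25a37 (mitoferrin 1), the mitochondrial iron importer, by 2.79.

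**Figure D2:**
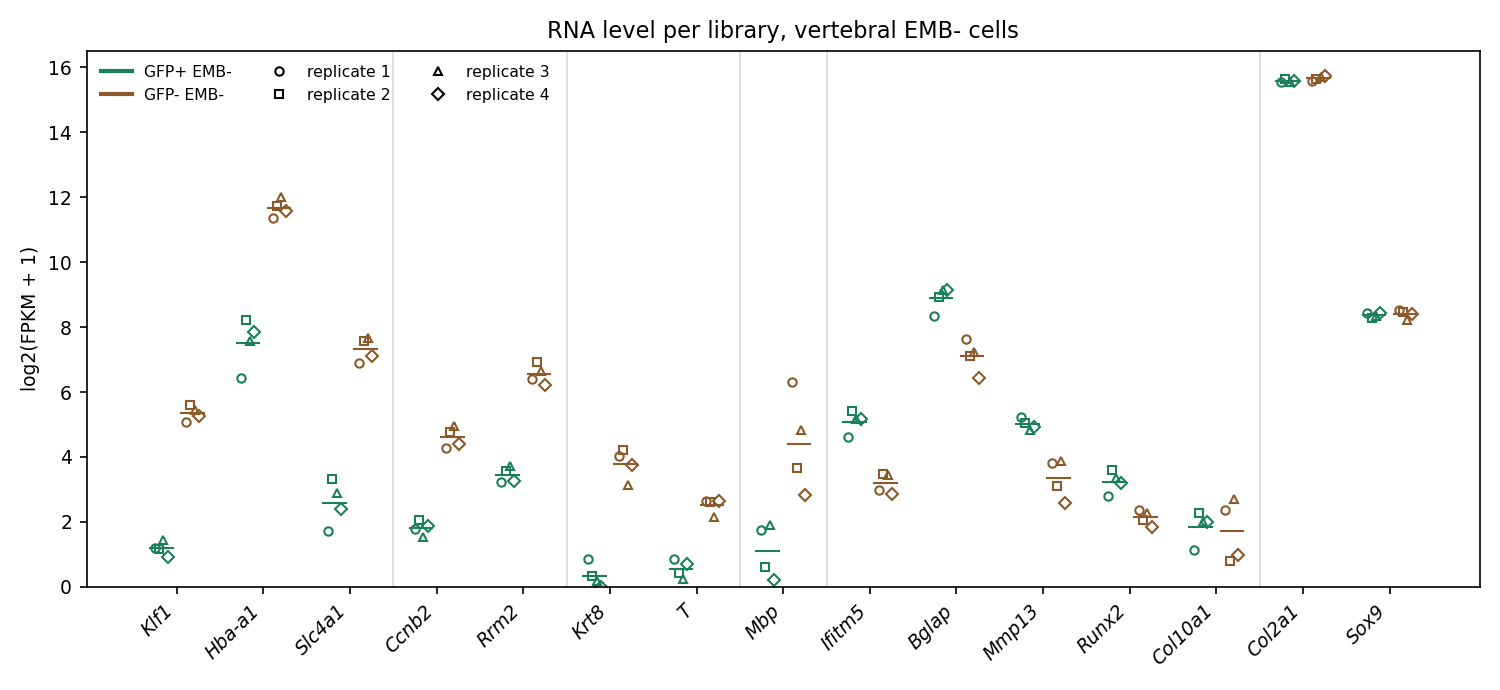
Level of 15 genes in each library, as log2(FPKM + 1), with GFP+ EMB- left of GFP- EMB- for each gene, marker shapes for replicate numbers and bars for group means. Klf1, Hba-a1, Slc4a1, Ccnb2, Rrm2, Krt8, T and Mbp are lower in every GFP+ library, Ifitm5, Bglap, Mmp13 and Runx2 are higher, and Col10a1, Col2a1 and Sox9 overlap. Krt8 and T passed the minimum level through the GFP- libraries alone, so their separation was fixed in advance.

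Genes of the cell cycle dropped together. Of 38 tested genes of DNA replication and mitosis, 37 fell and none rose (17 of 18 replication genes with a median of -1.66, and 20 of 20 mitosis genes with a median of -1.94). Their summed share was 0.0399 to 0.0465% of summed FPKM in GFP+ libraries, against 0.162 to 0.214% in GFP- libraries. Rrm2 (GRCm38 chromosome 12, 24708241 to 24714146), the ribonucleotide reductase subunit made in S phase, was at 8.30, 10.9, 12.3 and 8.57 FPKM in the GFP+ EMB- libraries, against 83.5, 121, 99.3 and 73.1 FPKM in the GFP- EMB- libraries. Groups did not overlap, and it fell by 3.10 (SE 0.25, adjusted p = 1.57e-09). Ccnb2 (chromosome 9, 70407689 to 70421554), a B-type cyclin of mitotic entry, was at 2.43, 3.15, 1.90 and 2.68 FPKM in the GFP+ EMB- libraries, against 18.5, 26.4, 29.8 and 20.0 FPKM in the GFP- EMB- libraries, also without overlap. It fell by 2.79 (SE 0.20, adjusted p = 1.64e-10). Birc5 (survivin, of the chromosomal passenger complex) was at 6.28, 7.41, 5.89 and 7.58 FPKM in the GFP+ EMB- libraries, against 39.8, 58.1, 66.2 and 53.3 FPKM in the GFP- EMB- libraries and fell by 2.81 (SE 0.18, adjusted p = 4.28e-11). Ube2c, which tags mitotic cyclins for destruction, fell by 3.18, Tk1 (thymidine kinase) by 2.56, Uhrf1 (maintenance of DNA methylation) by 2.52, Top2a by 2.33 and Fen1 (flap endonuclease) by 2.01. Among the D cyclins, Ccnd1 and Ccnd2 did not pass: Ccnd1 differed by 0.74 (adjusted p = 0.104) and Ccnd2 by -0.01. Of 10 genes of D cyclins and cyclin-dependent kinase inhibitors 3 fell, namely Cdkn2d (p19Ink4d, -1.10, SE 0.16, adjusted p = 1.06e-05), Cdkn2c (-0.57) and Ccnd3 (-0.44). The last 2 depended on single libraries: without GFP+ replicate 2, GFP+ replicate 3, GFP- replicate 2 or GFP- replicate 3 only 1 of the 10 passed. Both drops set the same 4 GFP+ libraries apart from the same 4 GFP- libraries, and the part of red cells in the drop of cell cycle genes was not tested. Of the 38 genes, 6 passed the minimum level through the GFP- libraries alone.

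**Figure D3:**
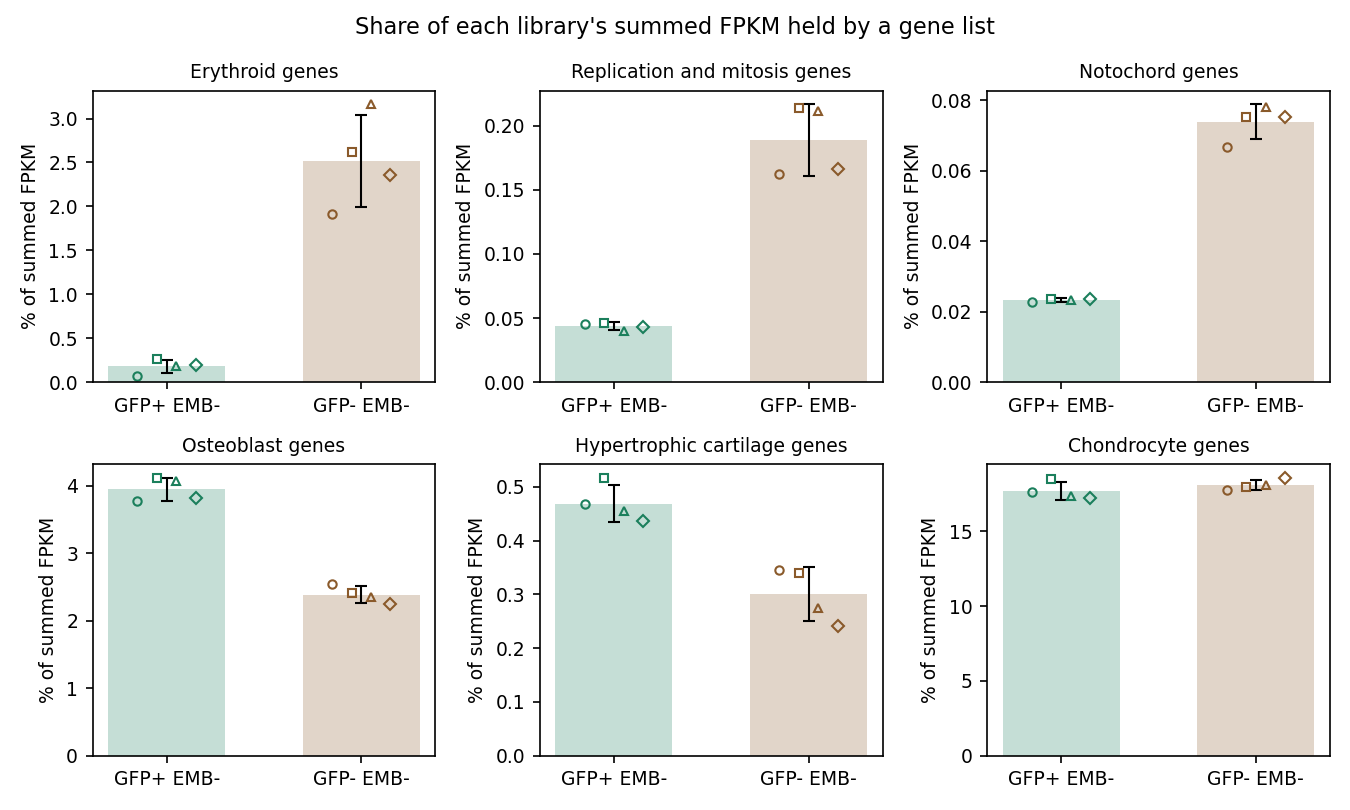
Share of each library's summed FPKM, in percent, held by gene lists in GFP+ EMB- (left) and GFP- EMB- (right) libraries, with a point for each library, bars for group means and error bars for the SD (n = 4 each). Erythroid genes hold 0.0721 to 0.260% in GFP+ and 1.91 to 3.16% in GFP- libraries, and osteoblast genes 3.78 to 4.12% in GFP+ and 2.24 to 2.55% in GFP- libraries. Most of the share of the notochord list is Cd24a, a gene also of blood cells.

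Bone genes rose in GFP+ EMB- cells. Of 18 tested osteoblast genes, 13 were higher and none lower, against 2.37% of all genes called higher, with a median log2 difference of 0.84, and the list held 3.78 to 4.12% of summed FPKM in GFP+ libraries, against 2.24 to 2.55% in GFP- libraries. Of the 18, 1 passed the minimum level through the GFP+ libraries alone, and with the replicate block 15 were higher and 1 lower. Ifitm5 and Bglap were among the list's largest rises, and the 250 bases before their RefSeq starts (GRCm38.p6) are shown for comparison, with capitals for ACCACA, the core read by Runx factors, searched on both strands.
Ifitm5 (chr7:140950244-140950493, minus strand): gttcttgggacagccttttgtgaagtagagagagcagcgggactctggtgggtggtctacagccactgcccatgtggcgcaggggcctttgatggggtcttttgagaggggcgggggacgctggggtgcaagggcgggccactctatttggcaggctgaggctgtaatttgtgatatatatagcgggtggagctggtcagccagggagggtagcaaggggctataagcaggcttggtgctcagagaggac
Bglap (chr3:88384467-88384716, minus strand): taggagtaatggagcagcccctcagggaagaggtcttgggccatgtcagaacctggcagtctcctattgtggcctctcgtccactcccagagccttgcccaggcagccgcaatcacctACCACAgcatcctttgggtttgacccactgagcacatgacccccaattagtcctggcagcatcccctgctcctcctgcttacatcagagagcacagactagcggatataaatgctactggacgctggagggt
Bglap holds 1 ACCACA and Ifitm5 none in this window. ACCACA occurred in 5 of 16 osteoblast promoters (31.2%; several genes have more than 1 start) and in 14.0% of all 32851. For the osteoblast list 11 of 18 members matched. CACCC and ACCACA can overlap where one runs into the other.

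Ifitm5 (GRCm38 chromosome 7, 140948958 to 140950291), a membrane protein of bone-forming osteoblasts, was at 23.6, 41.3, 34.9 and 34.7 FPKM in the GFP+ EMB- libraries, against 6.84, 10.0, 9.85 and 6.30 FPKM in the GFP- EMB- libraries. The groups did not overlap, and it rose by 1.90 on the log2 scale (SE 0.28, adjusted p = 1.48e-05). Bglap (chromosome 3, 88383501 to 88384464), which encodes osteocalcin, was at 326, 487, 565 and 563 FPKM in the GFP+ EMB- libraries, against 199, 136, 149.6 and 85.5 FPKM in the GFP- EMB- libraries, without overlap. It rose by 1.79 (SE 0.33, adjusted p = 4.53e-04; adjusted p = 0.0775 with the replicate block). Its near-identical neighbour Bglap2 was at 129, 216, 208 and 202 FPKM in the GFP+ EMB- libraries, against 66.0, 65.5, 50.5 and 34.5 FPKM in the GFP- EMB- libraries and rose by 1.80 (SE 0.30, adjusted p = 1.03e-04), and reads may be split between these copies. Runx2 (chromosome 17, 44495987 to 44814797), the transcription factor that starts the osteoblast programme, was at 5.95, 11.2, 9.11 and 8.11 FPKM in the GFP+ EMB- libraries, against 4.16, 3.18, 3.85 and 2.57 FPKM in the GFP- EMB- libraries. Every GFP+ library exceeded every GFP- library, and it rose by 1.10 (SE 0.17, adjusted p = 3.90e-05). Dlx5, a homeobox regulator of osteoblasts, rose by 1.15 (SE 0.13, adjusted p = 1.93e-07), Dmp1, a matrix protein of osteocytes, by 1.58 (SE 0.28, adjusted p = 2.82e-04), and Pth1r, the parathyroid hormone receptor, by 0.74 (SE 0.11, adjusted p = 3.39e-05). Ibsp (bone sialoprotein) and Alpl (alkaline phosphatase) had log2 differences of 0.38 and -0.28 and did not pass. Col1a1, the main collagen of bone, was at 5769.7, 5623, 6055 and 5791 FPKM in the GFP+ EMB- libraries, against 3794, 3565, 3385 and 3282 FPKM in the GFP- EMB- libraries, without overlap. Its difference of 0.73 (SE 0.22, adjusted p = 0.0356) did not pass without any 1 of the 8 libraries (adjusted p 0.0533 to 0.0917), but did with the replicate block (8.58e-08). With libraries rescaled without erythroid genes, 11 of 18 osteoblast genes were higher.

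Hypertrophic cartilage genes overlap this list and rose with it: 12 of 15 tested genes were higher and none lower, with a median of 0.81, and with the replicate block 13 were higher and 1 lower. They held 0.436 to 0.517% of summed FPKM in GFP+ libraries, against 0.242 to 0.346% in GFP- libraries. Mmp13 (GRCm38 chromosome 9, 7272514 to 7283333), the collagenase of terminal hypertrophic cartilage and osteoblasts, was at 36.3, 31.9, 27.1 and 29.6 FPKM in the GFP+ EMB- libraries, against 13.1, 7.53, 13.6 and 5.00 FPKM in the GFP- EMB- libraries. Groups did not overlap, and it rose by 1.66 (SE 0.26, adjusted p = 4.27e-05). Arsi, an arylsulfatase, rose by 1.17 (SE 0.13, adjusted p = 2.44e-07). The groups overlapped for Ihh, which encodes Indian hedgehog of the prehypertrophic zone, but it passed with 0.86 (SE 0.20, adjusted p = 0.00547). Col10a1, the defining collagen of hypertrophic chondrocytes, was at 1.21, 3.81, 2.99 and 2.98 FPKM in the GFP+ EMB- libraries, against 4.11, 0.735, 5.53 and 0.987 FPKM in the GFP- EMB- libraries. Libraries of both groups interleaved, and the difference of 0.14 did not pass (adjusted p = 0.903).

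**Figure D4:**
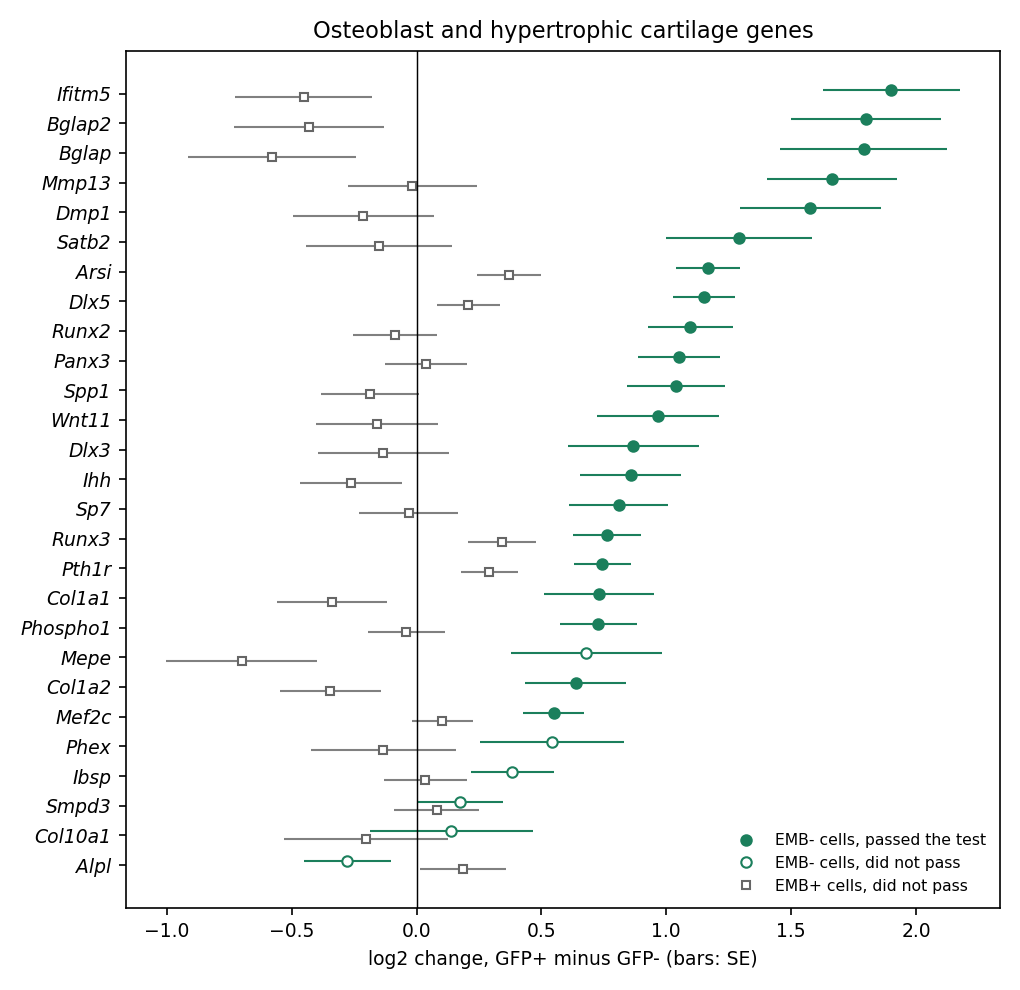
Log2 difference, GFP+ minus GFP-, of osteoblast and hypertrophic cartilage genes in EMB- cells (circles) and in EMB+ cells (squares), with SE bars, filled where the test passed. Ifitm5 and the osteocalcin genes rise by 1.79 to 1.90 in EMB- cells, and in EMB+ cells Ifitm5 differs by -0.45 without passing.

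Most tested cartilage genes, 20 of 23, did not pass, although the share that passed was not below that of all genes. Of 23 tested chondrocyte genes 2 were higher and 1 lower, with a median of -0.02, where 2.37% of all tested genes were called higher and 6.33% lower. The list held 17.2 to 18.5% of summed FPKM in GFP+ libraries, against 17.8 to 18.6% in GFP- libraries. Col2a1, the main cartilage collagen, was at 47911, 51026, 48071 and 48585 FPKM in the GFP+ EMB- libraries, against 49286, 50784, 53492 and 54283 FPKM in the GFP- EMB- libraries. The groups overlapped (log2 difference -0.09, SE 0.13, adjusted p = 0.833). Sox9, which drives cartilage fate, differed by -0.02 (adjusted p = 0.974), and Acan (aggrecan) by -0.21 (adjusted p = 0.481; 0.0295 with the replicate block). Matn3, a matrilin of cartilage matrix, was the clearest rise at 395, 437, 414 and 304 FPKM in the GFP+ EMB- libraries, against 245, 177, 173.1 and 136 FPKM in the GFP- EMB- libraries, with a log2 difference of 1.10 (SE 0.21, adjusted p = 5.32e-04), and Matn4 rose by 0.80. Epyc (epiphycan), a proteoglycan of growth plate cartilage, fell by 1.00 (SE 0.17, adjusted p = 1.81e-04). With the replicate block 5 of the 23 were higher and 3 lower, where 6.59% of all tested genes were called higher and 11.7% lower.

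Fibrous and elastic matrix genes added to the rises. Of 17 fibroblast and periosteum genes 6 rose (median 0.48), of 15 elastic fibre genes 4 (0.37), of 12 tendon and ligament genes 3 (0.27) and of 20 collagens 5 (0.22), with none lower in any of these lists. Clec3b (tetranectin) rose by 1.82 (SE 0.28, adjusted p = 3.97e-05), Postn (periostin) was at 138, 126, 150.2 and 111 FPKM in the GFP+ EMB- libraries, against 89.1, 60.7, 59.1 and 47.2 FPKM in the GFP- EMB- libraries and rose by 1.05 (SE 0.23, adjusted p = 0.00303), and the small proteoglycan Lum rose by 0.82 and Dpt (dermatopontin) by 0.95. Every GFP+ library was above every GFP- library for Postn. Mfap4 rose by 1.53 (SE 0.19, adjusted p = 1.02e-06), the fibulins Fbln1 and Fbln5 by 0.99 and 0.99, and Ltbp2 by 1.14, while Eln (elastin) differed by 0.13 and did not pass. Tnmd (GRCm38 chromosome X, 133850980 to 133865577), tenomodulin of tendon cells, was at 143, 137, 195 and 176.2 FPKM in the GFP+ EMB- libraries, against 66.9, 65.2, 76.2 and 61.0 FPKM in the GFP- EMB- libraries. It rose by 1.25 without overlap (SE 0.21, adjusted p = 1.11e-04), and Thbs4 rose by 0.82, whereas the tendon factor Scx differed by 0.33 and did not pass. Among collagens, Col12a1 rose by 0.95 and Col22a1 by 1.33, and the count of 5 was 3 without any 1 of the 8 libraries and 11 with the replicate block. The block also raised the tendon count to 7, the elastic count to 8 and the fibroblast count to 10, with 1 fibroblast, 2 elastic and 3 collagen genes then lower.

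Matrix proteases and their inhibitors gave 5 of 14 genes higher and 1 lower (median 0.30), where 2.37% of all tested genes were called higher and 6.33% lower. Mmp2 (gelatinase A) rose by 0.83 (SE 0.10, adjusted p = 1.28e-06) and Timp1 by 0.92 (SE 0.20, adjusted p = 0.00202). The lower gene, Mmp3 (-0.76, SE 0.22, adjusted p = 0.0327), was lost on leaving out GFP+ replicate 2, 3 or 4 or GFP- replicate 1, 2 or 3. Other genes among the 15 largest rises encode secreted and surface proteins. Nov (CCN3), a matricellular protein, was at 17.8, 8.83, 24.8 and 6.06 FPKM in the GFP+ EMB- libraries, against 2.54, 3.28, 2.98 and 1.53 FPKM in the GFP- EMB- libraries, and differed by 1.95 (SE 0.43, adjusted p = 0.00311) without overlap. Cthrc1, a collagen-linked secreted protein, was at 91.0, 86.1, 109.6 and 87.2 FPKM in the GFP+ EMB- libraries, against 39.1, 33.0, 33.0 and 28.6 FPKM in the GFP- EMB- libraries and rose by 1.46 (SE 0.13, adjusted p = 6.29e-09). The rest were Angptl7 (1.70), Angptl4 (1.46), Olfml3 (1.60), C1qtnf7 (1.58), Serpinf1, the antiangiogenic factor PEDF (1.58), and the adhesion molecule Cadm1 (1.47). Cxcl12, the chemokine of marrow reticular stroma, was at 29.9, 24.5, 23.4 and 25.4 FPKM in the GFP+ EMB- libraries, against 16.5, 6.22, 7.74 and 9.35 FPKM in the GFP- EMB- libraries, with no overlap, and rose by 1.37 (SE 0.21, adjusted p = 3.33e-05).

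Notochord genes were lower in GFP+ EMB- cells. Of 9 listed genes 5 were tested, and 4 fell (median -1.96). Krt8, Krt19 and T, 3 of the 5, passed the minimum level through the GFP- libraries alone. Their direction was therefore fixed in advance and their groups could not overlap. The list held 0.0226 to 0.0237% of summed FPKM in GFP+ libraries, against 0.0668 to 0.0782% in GFP- libraries. Most of that share was Cd24a, since the levels of Krt8, Krt19 and T given below make up a small part of it. The share is therefore no measure of notochord RNA. Krt8 (GRCm38 chromosome 15, 101996711 to 102004342) and Krt19, keratins of notochord and nucleus pulposus, stood out: Krt8 was at 0.827, 0.248, 0.122 and 0 FPKM in the GFP+ EMB- libraries, against 15.2, 17.4, 7.71 and 12.46 FPKM in the GFP- EMB- libraries. It fell by 3.44 (SE 0.23, adjusted p = 4.28e-11). Krt19 was at 0.547, 0.136, 0.372 and 0.111 FPKM in the GFP+ EMB- libraries, against 18.9, 20.1, 12.7 and 13.8 FPKM in the GFP- EMB- libraries, and fell by 3.74 (SE 0.19, adjusted p = 9.24e-13). T (brachyury, GRCm38 chromosome 17, 8434423 to 8442496), the transcription factor that defines the notochord, was at 0.818, 0.339, 0.174 and 0.634 FPKM in the GFP+ EMB- libraries, against 5.23, 5.13, 3.47 and 5.31 FPKM in the GFP- EMB- libraries, and fell by 1.96 (SE 0.14, adjusted p = 2.56e-10). Cd24a, a surface antigen of nucleus pulposus but also of blood cells, fell by 1.56. Foxa2 differed by 0.39 without passing, and Noto, Shh, Foxa1 and Krt18 were below the minimum level, although Krt18 differed by -1.39 (adjusted p = 8.50e-05) in the fit without the filter. Serpina1e, a serum-type protease inhibitor with near-identical copies, was at 0.447, 0.115, 0.182 and 0.193 FPKM in the GFP+ EMB- libraries, against 26.1, 33.7, 20.2 and 20.7 FPKM in the GFP- EMB- libraries and fell by 4.38 (SE 0.16, adjusted p = 3.11e-16). It passed the minimum level through the GFP- libraries alone, so its direction was fixed in advance and its groups could not overlap. Its share among the Serpina1 genes is uncertain.

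Nerve sheath genes moved the same way. Of 11 listed, 5 were tested and 4 fell (median -2.24), and the list held 0.0158 to 0.0193% of summed FPKM in GFP+ libraries, against 0.0204 to 0.0530% in GFP- libraries. Mbp (myelin basic protein) was at 2.34, 0.540, 2.74 and 0.145 FPKM in the GFP+ EMB- libraries, against 78.2, 11.7, 27.4 and 6.17 FPKM in the GFP- EMB- libraries. The GFP- libraries spread widely, with replicate 1 the highest, but none overlapped the GFP+ libraries (-3.30, SE 0.64, adjusted p = 0.00105). Fabp7, of glial cells, fell by 1.89 (SE 0.23, adjusted p = 8.47e-07). The count of 4 was 3 without GFP+ replicate 1, 2 or 4 or GFP- replicate 1 or 3, and 3 with the replicate block. S100b, also a cartilage gene, differed by -0.15. Sox10, Mal, Gfap, Snap25 and Stmn2 were below the minimum.

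Marker lists of other cells gave calls among small numbers of tested genes, where 2.37% of all tested genes were called higher and 6.33% lower. Of 10 tested neutrophil and monocyte genes, Laptm5 fell (-1.29, SE 0.29, adjusted p = 0.00371) with a median of -1.54 over the list, and 4 fell with the block. At an unadjusted p below 0.05 in limma's test 8 of the 10 were lower and 0 higher, against 1876 of all 10489 genes in either direction. Of the 10, 2 passed the minimum level through the GFP- libraries alone, Laptm5 among them. The list held 0.0111 to 0.0293% of summed FPKM in GFP+ libraries, against 0.0463 to 0.176% in GFP- libraries, with Mpo, Elane, Prtn3, Ctsg, Csf1r, Cd68 and Adgre1 below the minimum. The 3 tested osteoclast genes split: Acp5 (tartrate-resistant acid phosphatase) fell by 2.13 (SE 0.23, adjusted p = 2.40e-07), while Ctsk (cathepsin K) rose by 0.86 (SE 0.12, adjusted p = 9.57e-06). Ocstamp, Dcstamp, Calcr, Oscar and Atp6v0d2 were below the minimum. Osteoclast genes held 0.00857 to 0.0108% of summed FPKM in GFP+ libraries, against 0.00681 to 0.00922% in GFP- libraries. A single gene fell of 3 tested B cell and class II genes (H2-Ab1, -1.02), of 4 megakaryocyte genes (Gp9, -1.43) and of 3 skeletal muscle genes (Mylpf, -0.99). Of 4 tested smooth muscle and pericyte genes 1 rose (Pdgfrb, 0.57). H2-Ab1 did not pass without GFP+ replicate 3 or 4 or GFP- replicate 2, Gp9 without any GFP+ replicate or GFP- replicate 4, and Pdgfrb without GFP+ replicate 2 or 3 or GFP- replicate 3. Gp9 also met the minimum level through the GFP- libraries alone. Of 11 endothelial genes only 1 was tested, Pecam1, Cdh5, Kdr, Tek, Tie1, Emcn, Cldn5, Flt1, Vwf and Esam being below the minimum, and no endothelial or meningeal gene passed. The part of these cell types in the other differences was not tested.

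Some patterning genes were called, where 2.37% of all tested genes were called higher and 6.33% lower. Of 11 sclerotome and somite factors 3 were higher (median 0.34). Twist1, a basic helix-loop-helix factor of mesenchyme, was at 15.6, 19.2, 22.1 and 19.6 FPKM in the GFP+ EMB- libraries, against 11.1, 12.0, 10.9 and 14.3 FPKM in the GFP- EMB- libraries and rose by 0.62 (SE 0.14, adjusted p = 0.00427), with no overlap between the groups. Meox1 rose by 0.53 (SE 0.15, adjusted p = 0.029), although it was lost in 5 of 8 leave-one-out fits (adjusted p up to 0.127). Pax1, Pax9 and Uncx, which mark sclerotome, did not pass. Prrx1, of limb and other mesenchyme, rose by 0.73 (SE 0.16, adjusted p = 0.00332), and the forkhead factor Foxf2 fell by 0.72 (SE 0.16, adjusted p = 0.00215). Of 23 tested Hox genes 4 were higher and none lower (median 0.28), including Hoxb9 (0.64) and Hoxa5 (0.71), with 8 higher under the replicate block and 1 higher without GFP+ replicate 3 or without GFP- replicate 3. Without GFP+ replicate 1, GFP+ replicate 4 or GFP- replicate 1, 2 were higher.

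Signalling lists gave single genes rather than whole pathways, where 2.37% of all tested genes were called higher and 6.33% lower. Among 21 genes of BMP signalling 3 were higher and 2 lower, and Bmp4 (GRCm38 chromosome 14, 46383520 to 46390669), a bone morphogenetic ligand, was at 3.99, 5.77, 5.11 and 3.65 FPKM in the GFP+ EMB- libraries, against 0.916, 1.59, 1.33 and 0.810 FPKM in the GFP- EMB- libraries. All GFP+ libraries were above all GFP- libraries, and it rose by 1.38 (SE 0.17, adjusted p = 1.18e-06). Gdf10 rose by 1.14 (SE 0.17, adjusted p = 2.84e-05) and Bmp7 by 0.71 (SE 0.16, adjusted p = 0.00427). The lower genes, Id4 (-0.57) and Bmp3 (-0.62), passed in fewer leave-one-out fits: neither passed without GFP+ replicate 2 or 3 or GFP- replicate 1, 2 or 4, and 1 passed without each other library. Of 4 Wnt ligands 2 rose, Wnt5b (0.65) and Wnt11 (0.97), the second not without GFP+ replicate 3 or GFP- replicate 4. Sostdc1, a secreted inhibitor of Wnt and BMP signals, was at 1.68, 0.832, 1.96 and 1.18 FPKM in the GFP+ EMB- libraries, against 9.88, 10.8, 10.1 and 10.7 FPKM in the GFP- EMB- libraries. It fell by 2.26 without overlap (SE 0.19, adjusted p = 2.58e-09), Sfrp5 fell by 0.69, and Dkk3 (0.70) and the Wnt-responsive factor Tcf7 (1.07) rose.

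Among 13 TGF-beta genes 4 rose and 1 fell, where 2.37% of all tested genes were called higher and 6.33% lower. Fst (follistatin, 0.65) and Tgfb2 (0.54) were among the higher genes, and Inhba (-0.92) was lower. The higher count was 2 without GFP+ replicate 3 or GFP- replicate 2 or 4, and Inhba was lost without GFP+ replicate 2 or 3 or GFP- replicate 3 or 4. Of 15 genes of IGF and imprinted growth 4 rose, including Igf1 (0.63, SE 0.16, adjusted p = 0.0121) and Igfbp4 (0.68), and 8 with the replicate block. Leaving out libraries lowered this count to 0 (GFP+ replicate 3), 1 (GFP+ replicate 4 or GFP- replicate 2) or 2 (GFP+ replicate 1 or GFP- replicate 3). Of 10 Hedgehog genes Ihh alone passed.

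Of 21 glycolysis and hypoxia genes 4 were lower and none higher (median -0.39), where 6.33% of all tested genes were called lower. With the replicate block 16 were lower, against 11.7% of all tested genes. They held 0.681 to 0.853% of summed FPKM in GFP+ libraries, against 0.892 to 1.03% in GFP- libraries. Pfkp, the platelet-type phosphofructokinase, fell by 0.71 (SE 0.13, adjusted p = 3.43e-04) and Car9, a hypoxia-induced carbonic anhydrase, by 0.98 (SE 0.21, adjusted p = 0.00185). The count was 7 without GFP+ replicate 1 and 2 without GFP+ replicate 3 or GFP- replicate 1. No ribosomal protein gene of 79 passed limma's test, with 0 at an unadjusted p below 0.05 (5 were higher with the block), and of 91 respiratory chain genes only Cox6b2 did (-1.62).

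The GFP difference was also measured in EMB+ cells. The 4 GFP- EMB+ libraries carry titles that read GFP+ EMB-, against their cell type labels, and were placed by the labels; Zic1 was at 1.51 to 2.39 FPKM in the GFP+ EMB+ libraries, against 0 to 0.108 FPKM in the GFP- EMB+ libraries. The EMB+ values rest on those 4 libraries and cannot be given without them, whereas the EMB- comparison gave 211 genes higher (2.01%) and 603 lower (5.75%) without them. In EMB+ cells, with 4 libraries in each group, 151 genes were called (1.44%), 31 higher (0.296%) and 120 lower (1.14%). These counts are over the same 10489 genes, chosen by their level in EMB- cells. Genes above the minimum level only in EMB+ cells were not tested. A call in the same direction in both settings was made for 41 genes, 7 higher and 34 lower, which is 4.49% of the EMB- calls and 27.2% of the EMB+ calls, and 8 genes were called in opposite directions. Across all genes the differences correlated weakly (Pearson 0.189, Spearman -0.06), as a description over genes within this data set, with no libraries shared. The GFP difference in EMB- cells minus that in EMB+ cells passed for 535 genes (5.1%), 170 above 0 (1.62%) and 365 below (3.48%).

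No erythroid gene passed limma's test in EMB+ cells, with 0 at an unadjusted p below 0.05, and all 21 had a difference of differences below 0: Klf1 was -4.17 in EMB- and 0.19 in EMB+ cells (-4.36, SE 0.35, adjusted p = 3.43e-08). For the 38 cell cycle genes 34 differed in this way, such as Birc5 (-2.81 in EMB- and 0.05 in EMB+ cells). Of 18 osteoblast genes none passed in EMB+ cells (1 higher and 1 lower at an unadjusted p below 0.05) and 10 had a difference above 0, with Ifitm5 at 1.90 in EMB- and -0.45 in EMB+ cells (2.35, SE 0.39, adjusted p = 2.31e-04) and Runx2 at 1.10 and -0.09. Hypertrophic cartilage genes gave 7 of 15 above 0.

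**Figure D5:**
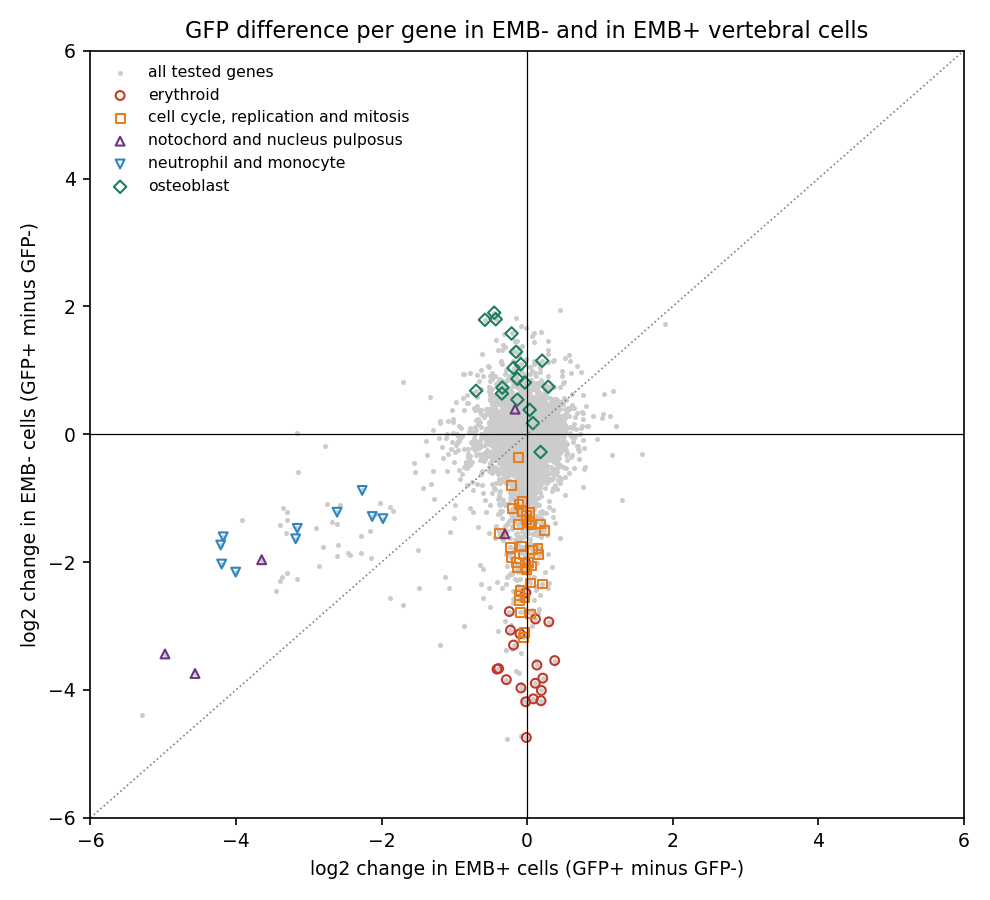
Log2 GFP difference per gene in EMB- cells (vertical) against that in EMB+ cells (horizontal), GFP+ minus GFP-, with all tested genes in grey and gene lists marked. Erythroid genes lie near 0 on the horizontal axis and between -4.74 and -2.003 on the vertical, while Krt8, Krt19 and T are low on both.

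Notochord genes were lower in both settings. Of 5 tested genes 3 fell in EMB+ cells. For Krt8 and T the EMB+ drop was the larger by the test of the difference: Krt8 differed by -3.44 in EMB- and -4.98 in EMB+ cells (1.54, SE 0.32, adjusted p = 0.00259), and T by -1.96 and -3.65 (1.68, SE 0.20, adjusted p = 4.19e-06). Krt19 was -3.74 in EMB- and -4.56 in EMB+ cells. Sostdc1 was also lower in both, -2.26 and -3.16, and its difference of 0.90 did not pass (SE 0.27, adjusted p = 0.0518). Cck (cholecystokinin) and Hopx had the largest positive differences between the settings of the genes named: Cck was 0.02 in EMB- against -3.17 in EMB+ cells, and Hopx -0.19 against -2.78. Neutrophil and monocyte genes fell in EMB+ cells for all 10 tested, against 1 in EMB- cells, but no gene of the 10 passed the test of the difference between the settings. The tendon genes Tnmd and Thbs4 had opposite signs, with Tnmd at 1.25 in EMB- and -0.63 in EMB+ cells (1.88, SE 0.30, adjusted p = 1.28e-04) and Thbs4 at 0.82 in EMB- and -1.70 in EMB+ cells (2.52, SE 0.24, adjusted p = 1.66e-07).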

How the data were processed

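Libraries of sorted cells were made with SMART-Seq v4 and Nextera XT (labels' protocols). These kits do not mark strand, so overlapping genes on opposite strands cannot be told apart. Tools named in the submitters' processing notes are bcl2fastq 2.19, STAR 2.5.2 and Cufflinks 2.1.1, with the build GRCm38. The table holds FPKM of protein-coding genes as deposited by the authors, per the file headers. FPKM divides by gene length and mapped fragments, so abundant genes shift all others, and an exact 0 can be a failed estimate.

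Of 22053 entries, 186 that repeat an identifier or symbol and 3 genes with failed estimates (16 values) were left out. Starts were raised by 1, since 17834 of 21664 matched genes start 1 below the annotation. Titles gave the groups. For the 4 libraries of vertebral GFP- EMB+ cells the title and the cell type label conflict, and the label was used. No 2 compared libraries were duplicates (smallest median difference 0.156 on the log2 scale).

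Tests used log2(FPKM + 1), with a pseudocount of 1, in limma 3.58.1 under R 4.3.3. The model held all 24 libraries in 6 groups, leaving 18 residual degrees of freedom, with a mean-variance trend and robust empirical Bayes. Two-sided p-values were adjusted by Benjamini-Hochberg over all 10489 genes, with a threshold of 0.05. Fold changes on this scale understate changes of low genes. On simulated data for this comparison (10489 genes, 200 changed), the fit recovered 93 of the 100 genes given a 2-fold change and 99 of the 100 given 4-fold, with 16 false calls. The changed genes were drawn only from those with a mean level above 5 FPKM in GFP- EMB- cells, so recovery of lower genes was not tested. Noise was drawn independently for each library, without the shared deviations of same-numbered libraries.

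Same-numbered libraries of the GFP+ and GFP- EMB- groups deviated together from their group means (correlations of 0.319, 0.142, 0.165 and 0.294), so the numbers were treated as pairs in a block fit. They stand in the titles, and what a number shares is not given in the sources used here. Other settings tried were a pseudocount of 0.1 or 5, no filter (16370 genes), a filter at 5 FPKM (6464 genes), a filter over the whole series (11736 genes), quantile normalization, median-ratio scaling on 4828 genes, rescaling without erythroid genes, models of only the 8 compared or 16 vertebral libraries with and without the block, library weights, and dropping the conflicting libraries. Each vertebral library was also dropped in turn, and so was long bone EMB- replicate 4. The other long bone libraries were not dropped singly.

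The members and the 46 gene lists were chosen with earlier results of these data known. The genes named are the sort markers, the 15 largest called changes in each direction (no overlap between groups, a mean of at least 5 FPKM in the higher group, no predicted genes), up to 4 members per described list by smallest adjusted p, defining members that did not pass, and the 5 largest differences between settings in each direction. Further list members, such as Rhd, were chosen after their values were seen. Promoters come from a RefSeq table of GRCm38.p6. Some genes that this rule names, and some lists examined, are not reported here.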

Additional observations from a re-analysis of the deposited data

Results flagged for a closer look

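A library far from the 3 others of its group was found for 11 of 248 groups of 4 examined, counting each of 124 named genes in both EMB- groups. Chance alone sets apart about 5 in 100 such groups. Zic4 was highest in GFP- replicate 2 (0.296 FPKM), Bglap2 was lowest in GFP+ replicate 1 (129 FPKM) and Pth1r was highest in GFP- replicate 1 (108 FPKM). Arsi was lowest in GFP+ replicate 4 (3.90 FPKM), Angptl7 was highest in GFP- replicate 2 (10.4 FPKM) and T was lowest in GFP- replicate 3 (3.47 FPKM). Gp9 was highest in GFP- replicate 4 (5.48 FPKM) and Pdgfrb was lowest in GFP+ replicate 4 (15.4 FPKM). Pfkp was highest in GFP+ replicate 1 (74.5 FPKM), and Bmp3 was highest in GFP+ replicate 2 (11.1 FPKM) and in GFP- replicate 2 (18.2 FPKM). In these the gap to the nearest library, as a share of the range of the group, was above Dixon's critical value, and nothing in the labels sets those libraries apart.

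The GFP difference itself differed between the vertebral EMB- and EMB+ cells for 77 of 124 named genes, and for 535 of all 10489 tested genes (5.1%). The test was limma's interaction test with Benjamini-Hochberg adjustment over all tested genes. Many named genes were picked by their change in EMB- cells or by this difference, so a high count among them follows from the choice. Each value below is the log2 GFP difference in EMB- cells minus that in EMB+ cells. Among red cell genes the values were Car2 -4.49, Slc4a1 -4.73, Ctse -4.64, Klf1 -4.36, Tspan33 -4.13, Hba-a1 -4.22, Hbb-bt -4.20, Hbb-bs -4.03, Rhag -3.88, Cldn13 -3.82, Hemgn -3.55, Rhd -3.27 and Ermap -3.75. In haem synthesis they were Alas2 -4.01, Alad -2.45 and Slc25a37 -2.95. In the cell cycle they were Birc5 -2.86, Ube2c -3.13, Tk1 -2.53, Ccnb2 -2.69, Top2a -2.37, Rrm2 -3.07, Uhrf1 -2.41, Fen1 -1.86 and Cdkn2d -1.23. For bone and hypertrophic cartilage genes they were Ifitm5 2.35, Bglap 2.37, Bglap2 2.23, Dmp1 1.79, Dlx5 0.94, Runx2 1.18, Mmp13 1.68, Arsi 0.80, Col1a1 1.07 and Ihh 1.12. For fibrous, elastic and other matrix genes they were Clec3b 1.97, Lum 1.16, Postn 1.57, Mfap4 1.47, Fbln1 1.15, Fbln5 0.92, Tnmd 1.88, Thbs4 2.52, Matn3 1.00, Col22a1 1.52, Cthrc1 1.59, Mmp2 0.84, Timp1 1.53 and Mmp3 -1.20. Other secreted and surface proteins gave Olfml3 1.40, C1qtnf7 1.48, Serpinf1 1.89, Cadm1 1.90, Angptl4 1.62, Serpina1e 0.91 and Cxcl12 1.67. Notochord and osteoclast genes gave Krt8 1.54, T 1.68, Cd24a -1.25, Acp5 -2.11 and Ctsk 1.34. Signalling genes gave Bmp4 1.45, Gdf10 0.85, Bmp3 -1.02, Wnt5b 0.73, Sfrp5 -1.17, Dkk3 1.19, Tcf7 1.20, Fst 1.39 and Igfbp4 1.07. Patterning and metabolic genes gave Twist1 0.69, Meox1 0.94, Prrx1 0.96, Pfkp -1.04 and Cox6b2 -1.17. The largest positive values were Cck 3.19 and Hopx 2.59.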

How the results depend on the processing

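No called count or named gene changed direction under the alternatives run. Of the 30 genes with the largest rises and drops, 29 kept their call in all 23 alternatives, the exception being Bglap (adjusted p = 0.0775 with the replicate block), and 88 of 120 called named genes kept theirs throughout. For GFP+ against GFP- in EMB- cells, the 913 calls (2.37% of tested genes higher, 6.33% lower) became 532 with the stricter filter (2.37% higher and 5.86% lower of the 6464 genes it tests), 1471 in a fit of the 16 vertebral libraries (4.44% higher, 9.58% lower) and 1510 with library weights (4.52% higher, 9.88% lower). A fit of the 8 compared libraries alone gave 3.97% higher, and quantile normalization 5.06% higher. With the replicate block the calls were 1915 in the fit of 8 libraries (6.59% higher, 11.7% lower) and 2039 in the fit of 16 (7.28% higher, 12.2% lower). Leaving out 1 of the 8 compared libraries, or replicate 4 of the long bone EMB- cells, gave 722 to 1269 calls. Of the tested genes 1.64 to 3.76% were then higher and 5.17 to 8.34% lower, where the 1269 and the 3.76% came from leaving out the long bone library.

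For the GFP difference in EMB- cells minus that in EMB+ cells, the 535 calls (1.62% above 0, 3.48% below) became 350 with the stricter filter (1.75% above, 3.67% below), 1076 in the fit of 16 libraries (3.83% above, 6.43% below), 1752 in that fit with the replicate block (7.70% above, 8.9999% below) and 1157 with library weights (4.32% above, 6.71% below). Leaving out 1 of the 16 vertebral libraries, or that same long bone library, gave 443 to 849 calls. Of the tested genes 1.18 to 2.99% were then above 0 and 2.95 to 5.10% below, where the 849 and the 2.99% came from leaving out the long bone library. The replicate block turned no direction, and the cause of the changes other than that of the stricter filter was not tested. The read depth behind the values is unknown, so no counting limit can be given.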
